A study of Sus scrofa with 8 samples.

Results

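miR-345 is a small regulatory RNA whose hairpin precursor gives rise to 2 mature strands, miR-345-5p from its left arm and miR-345-3p from its right arm. Both were measured here in corpora lutea of pigs, the glands that ovulated follicles turn into and that make progesterone. Entries of the array design were taken as miR-345 when the number in their name, after the species prefix, was that of miR-345. This gave 2 of the 686 targets on the array, ssc-miR-345-3p and ssc-miR-345-5p, with 2 probes each (4 of 1683 probes). miR-345 was selected on the measured difference of ssc-miR-345-3p between the groups, which was already known for these arrays. Its group difference, the value for the other strand and every contrast built from them are therefore given as descriptions without a test.

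A miRNA precursor is cut to a short duplex, of which one strand is kept in an Argonaute protein and guides it to messenger RNAs that pair with the strand's seed, while the other strand is mostly degraded. Where both strands come from the same transcript, a change in transcription alters both, whereas strand choice or strand decay can alter one. BAG3, a co-chaperone that restrains apoptosis, and ABCC1, a drug efflux pump, have been described as targets of miR-345 in human tumour cells. Such a description holds only for the strand whose seed pairs with the messenger RNA, and that strand is not resolved here. Messenger RNAs were not measured, and a link of BAG3 or ABCC1 to either strand in this tissue was not tested. In the RefSeq gene order of the pig assembly Sscrofa11.1, the 1 gene named for miR-345 (MIR345-1) stands between SLC25A29 and SLC25A47, which encode mitochondrial carriers. Further along in the same direction come DLK1 and MEG3, which open the imprinted DLK1-DIO3 region with its many miRNA genes, and in the opposite direction comes MIR342.

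Luteal tissue of crossbred gilts from 1 herd, 6 to 8 months old, was taken post mortem on day 14. The cyclic group (4 samples) was not inseminated and stood on day 14 of the estrous cycle. The pregnant group (4 samples) had been inseminated 12 and 24 hours after the second estrus was detected and stood on day 14 of pregnancy. Total RNA (100 ng per sample, RIN above 8) carried the dye Cy3 and went onto 1 array per sample, and per the labels each sample was its own biological replicate. Each array held 13720 spots for miRNAs, of which 22.8% to 28.8% were well above background and 0 saturated, and detected 181 to 223 targets. Slide 1 carried only pregnant samples (replicates 1 and 2), slide 2 only cyclic ones (replicates 1 and 2), and slide 3 both groups (replicates 3 and 4 of each). The scan of slide 1 was made on one day and that of the others on another, so slide and group cannot be told apart outside slide 3.

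As a check of the tissue, the gonad-enriched miR-202 was present, its 3p strand being well above background on all 8 arrays and its 5p strand on 5. Entries for the liver miRNA miR-122 (2 targets) and for the muscle miRNAs miR-1, miR-133 and miR-206 (6 targets) were well above background on none.

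The 3p strand of miR-345 was measured by both of its probes on every array. On the probe used for its level, A_38_P00020356, the mean spot intensity (background-subtracted, linear scale, not yet scaled between arrays) was 32.5, 43.3, 39.1 and 43.3 on cyclic replicates 1 to 4. On pregnant replicates 1 to 4 it was 18.9, 15.5, 16.3 and 11.6. Every cyclic array was thus brighter than every pregnant one before any scaling. The spots themselves did not overlap either: its 40 cyclic spots ran from 29.1 to 48.5 and its 39 pregnant spots from 9.34 to 23.9. Spots of an array are repeat readings of 1 sample and show the precision of the reading, not the spread between animals.

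The other 3p probe, A_38_P00020355, gave nearly the same reading. Its mean intensity was 32.3, 44.0, 38.2 and 41.5 on the cyclic arrays and 17.2, 15.0, 15.7 and 10.3 on the pregnant ones. After scaling, both probes differed by at most 0.17 on the log2 scale on any array. The spread between spots of a probe was larger where the signal was low, with a coefficient of variation of 5.69% to 10.6% on the cyclic arrays and 10.9% to 25.2% on the pregnant ones. On pregnant replicate 4, the dimmest array for this strand, 7 of 10 and 5 of 9 spots were well above background on the 2 probes, whereas on the other 7 arrays all spots were.

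**Figure D1:**
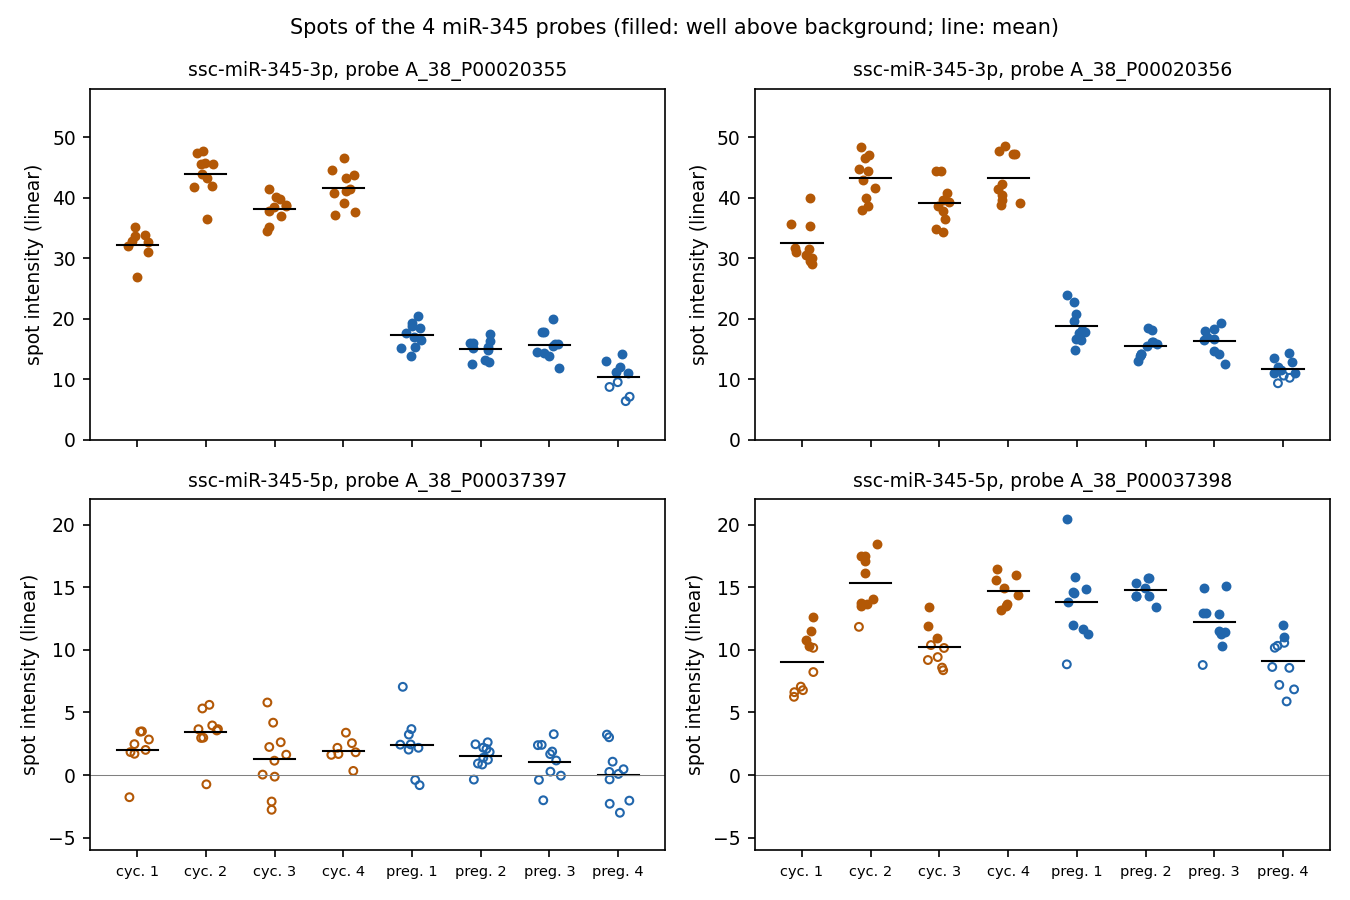
Intensity of each spot (linear scale, background-subtracted) of the 4 miR-345 probes on the 4 cyclic (orange) and 4 pregnant (blue) arrays; filled points are spots well above background, open points are not, and lines are means over spots. Both 3p probes read between 26.9 and 48.5 on cyclic arrays and at most 23.9 on pregnant ones, while the 5p probe A_38_P00037398 covers the same range in both groups and A_38_P00037397 stays near 0.

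For comparison between arrays, each signal was divided by the array's 75th percentile over the 166 targets detected on all arrays, and log2 was taken. On this scale ssc-miR-345-3p stood at −2.82, −2.78, −2.31 and −2.87 on cyclic replicates 1 to 4. On pregnant replicates 1 to 4 it stood at −3.87, −3.93, −4.21 and −4.02. The groups did not overlap, and the lowest cyclic array lay 1.00 above the highest pregnant one. That gap exceeded the range within either group, which was 0.56 among the cyclic and 0.34 among the pregnant arrays. Cyclic replicate 3 stood above the other cyclic arrays, which lay within a narrow band.

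The 3p strand averaged −2.69 ± 0.26 on the cyclic and −4.00 ± 0.15 on the pregnant arrays (log2 level, SD, n = 4 each). The log2 difference of pregnant minus cyclic was −1.31 ± 0.17 (SE from limma), which puts the pregnant level at 0.403 of the cyclic one. This is the contrast for which miR-345 was chosen. Of the 212 tested targets, 6 had a larger absolute difference, and the median absolute difference was 0.27. In 14 of the 212 (6.6%) all pregnant arrays lay below all cyclic ones and in 21 (9.91%) above them, and in 13 (6.13%) the level was lower in pregnancy with an adjusted p under 0.05 (limma, Benjamini-Hochberg), against 11 (5.19%) higher. In tissue RNA of this kind, fewer cells that hold a miRNA and less of it per cell cannot be told apart.

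The 5p strand was near the limit of detection. Its probe A_38_P00037397 was at or near 0 throughout, with mean intensities of 1.26 to 3.44 on cyclic and 0.0398 to 2.42 on pregnant arrays and 0 spots well above background in either group. The level of the strand therefore rests on the other probe, A_38_P00037398. Its mean intensity was 9.03, 15.3, 10.3 and 14.7 on cyclic replicates 1 to 4 and 13.8, 14.7, 12.2 and 9.11 on pregnant replicates 1 to 4. It counted as detected on cyclic replicates 2 and 4 and on pregnant replicates 1, 2 and 3, where 0.5 or more of the spots exceeded background well. It did not on cyclic replicates 1 and 3 and pregnant replicate 4. In all, 24 of 37 cyclic spots and 28 of 38 pregnant spots of this probe were well above background.

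Scaled in the same way, ssc-miR-345-5p stood at −4.66, −4.28, −4.24 and −4.42 on cyclic replicates 1 to 4 and at −4.32, −4.00, −4.62 and −4.37 on pregnant replicates 1 to 4. The groups overlapped over most of their range, and none of these values lay at the floor of −4.85 that was set for low signals. It averaged −4.40 ± 0.19 on the cyclic and −4.33 ± 0.26 on the pregnant arrays (log2 level, SD, n = 4 each), a log2 difference of 0.07 ± 0.17 (SE). Of the tested targets, 37 had a smaller absolute difference. Because both groups are so close to the floor, a fall of this strand could have been read only over a narrow range: the cyclic mean lay less than 0.5 above it. A fall as large as that of the 3p strand would have ended at the floor, and its size could not have been read.

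**Figure D2:**
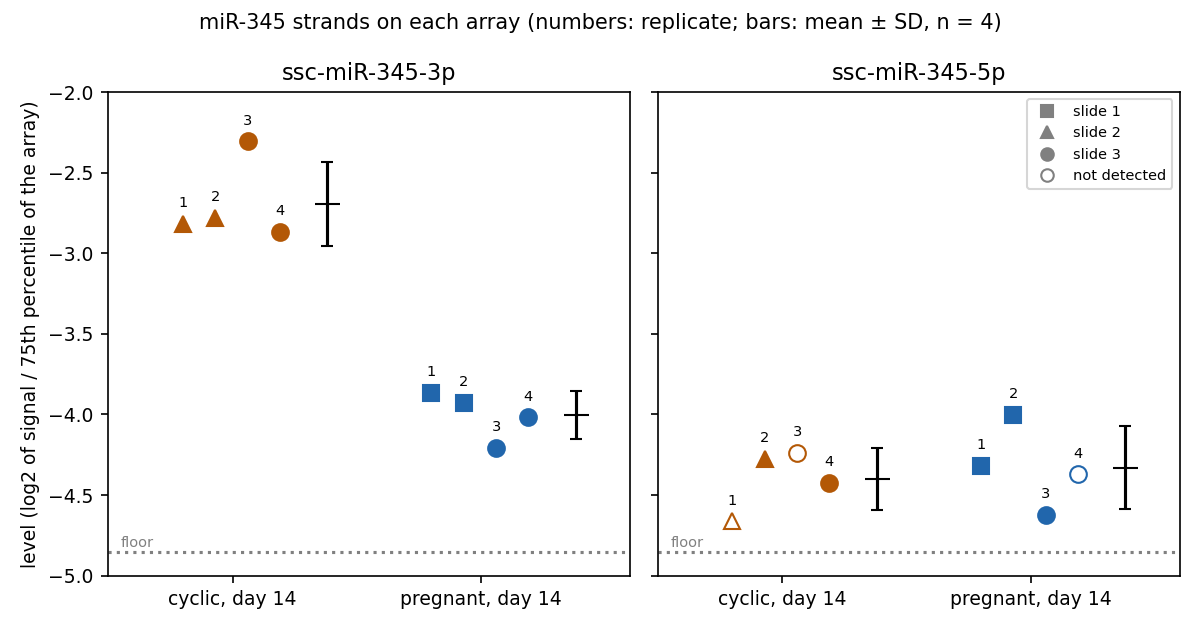
Level of ssc-miR-345-3p (left) and ssc-miR-345-5p (right) on each array, as log2 of the signal over the array's 75th percentile; symbols give the slide, numbers the replicate, open symbols arrays on which the strand was not detected, bars the mean ± SD of 4 arrays and the dotted line the floor at −4.85. The 3p strand lies between −2.87 and −2.31 on cyclic and between −4.21 and −3.87 on pregnant arrays, while the 5p strand overlaps between the groups.

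The strands can be set against each other within an array, since the difference of their log2 levels is free of the array's scaling. That difference, 3p minus 5p, was 1.85, 1.50, 1.93 and 1.56 on cyclic replicates 1 to 4. It was 0.45, 0.08, 0.42 and 0.35 on pregnant replicates 1 to 4, so again no pregnant array reached the cyclic range. Its mean went from 1.71 ± 0.21 to 0.33 ± 0.17 (SD, n = 4 each), a difference of −1.38 ± 0.14 (SE). As different probes hybridise with different strength, the difference within a group does not tell which strand was the more abundant, and the limit set by the floor on the 5p strand holds for it too. It shows that the readings of the 2 strands did not change alike.

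Within a group the strands varied partly together. After each group's mean was taken away, Pearson's r between them over the 8 arrays was 0.61, and without that step it was −0.01. Both strands share the RNA sample and the scaling of their array, so these values are descriptions. The common deviation of the scaled levels is seen on cyclic replicate 3, where each strand was at its highest among cyclic arrays. It is also seen on pregnant replicate 3, where each was at its lowest among pregnant ones. Before scaling, neither array was at the extreme of its group for either strand. The 75th percentile used as divisor was the lowest among cyclic arrays on the former (193) and the highest among pregnant arrays on the latter (301).

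Unequal readings of 2 strands were looked for in the other miRNAs of the array. Both strands were tested for 20 miRNAs, miR-345 and 19 others. Among the 19, the median absolute difference between the changes of the 2 strands was 0.25, 12 had strands within 0.5 of each other, and 8 had strands of opposite sign. In 1 miRNA the strands stood further apart than in miR-345. This was miR-125a, a relative of the developmental timing miRNA lin-4, measured with the human sequences: its 3p strand differed by −1.16 ± 0.33 and its 5p strand by 0.39 ± 0.15 (log2, SE), a distance of −1.55. The level of hsa-miR-125a-3p was −3.42, −3.22, −1.64 and −2.71 on cyclic replicates 1 to 4 and −3.83, −3.64, −4.24 and −3.93 on pregnant replicates 1 to 4, with a wider cyclic spread than that of miR-345-3p.

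The next in order, miR-202, ran the other way. Its 3p strand differed by 0.74 ± 0.33 and its 5p strand by −0.28 ± 0.17, a distance of 1.02, and cyclic replicate 1 read −1.06 for the 3p strand where the other cyclic arrays lay between −2.54 and −2.49. In miR-542, of which both strands rose (0.73 ± 0.21 for 3p and 1.03 ± 0.20 for 5p, limma adjusted p = 0.0457 and 0.0111; singled out after its values were seen), the strands lay 0.30 apart. With scan day as a block neither strand passed (0.80 and 1.09, limma adjusted p = 0.123 and 0.0671), and over 29 other settings the 3p strand passed in 10 and the 5p strand in 24, always higher in pregnancy. Of the 19, 11 had the 3p strand below the 5p strand, as in miR-345.

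**Figure D3:**
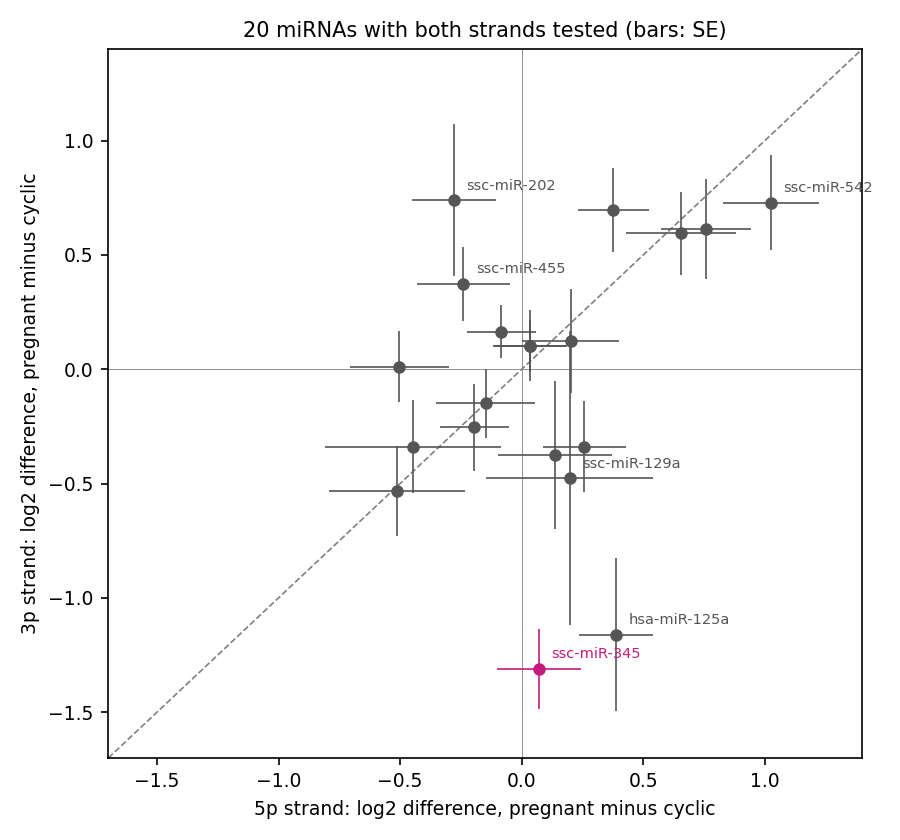
Log2 difference of pregnant minus cyclic for the 3p strand (vertical) against the 5p strand (horizontal) of the 20 miRNAs with both strands tested; bars are SE, the dashed line marks equal change, and miR-345 is in magenta. miR-345 (0.07 for 5p, −1.31 for 3p) and hsa-miR-125a (0.39 and −1.16) lie farthest below the line, and ssc-miR-202 lies farthest above it.

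Neighbouring genes were examined next, because miR-345 lies beside the DLK1-DIO3 region. The list of that region's miRNAs had 66 entries on the array, of which 57 were detected on no array and 8 on at least 4 arrays. Of the 8 tested, 2 were detected on all 8 arrays. After adjustment (limma), 0 of the 8 were higher and 0 lower in pregnancy, against 11.3% of all tested targets called in either direction. An unadjusted p under 0.05 (limma) was found for 2 of the 8 and for 34.4% of all tested targets. With 8 members, neither count can be set apart from these shares. The median difference of the 8 was −0.18, compared with 0.00 over all tested targets. The lowest was hsa-miR-134-5p, a brain-enriched miRNA, at −0.55 ± 0.17 (adjusted p = 0.0579), with all pregnant arrays below all cyclic ones but near or at the floor.

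At the other end ssc-miR-127, which lies antisense to the retrotransposon-derived gene RTL1, stood at 0.49 ± 0.21 (adjusted p = 0.135). The remaining tested members were hsa-miR-494-3p (0.27 ± 0.15), hsa-miR-376c-3p (−0.05 ± 0.32), hsa-miR-377-3p (−0.17 ± 0.24), hsa-miR-770-5p (−0.19 ± 0.17), ssc-miR-487b (−0.23 ± 0.28) and ssc-miR-370 (−0.25 ± 0.18). The porcine entries ssc-miR-494 and ssc-miR-376c were detected on no array. The count of members passing was 2 with scaling over all probes, 3 without cyclic replicate 1, and 1 with the mean of all probes, with slide as a fixed block or without a trend in the variance. On the opposite side of miR-345, the miR-342 gene was read by mmu-miR-342-3p, which was detected on all 8 arrays and differed by −0.10 ± 0.20 (adjusted p = 0.783). Its further entries ssc-miR-342 and mmu-miR-342-5p were detected on none, as was ssc-miR-9830-5p, whose gene lies between miR-345 and DLK1.

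The targets with the most similar course over the arrays were then taken from the 165 others detected on all of them. Over the 8 arrays the highest Pearson's r with ssc-miR-345-3p belonged to ssc-miR-4334-5p (0.98), ssc-miR-9850-5p (0.96), ssc-miR-671-5p (0.95), ssc-miR-9853-5p (0.95) and ssc-miR-9788-3p (0.92), with Spearman's rho of 0.86 to 0.98. A high r over both groups mostly repeats the group difference by which miR-345 was chosen. All 5 had smaller differences than the 3p strand of miR-345, from −0.72 ± 0.17 for ssc-miR-9788-3p to −0.41 ± 0.15 for ssc-miR-671-5p. ssc-miR-4334-5p stood at 0.15, 0.19, 0.45 and −0.04 on cyclic replicates 1 to 4 and at −0.50, −0.39, −0.67 and −0.40 on pregnant replicates 1 to 4. After the scaling common to all targets of an array, it shared with miR-345-3p its highest array (cyclic replicate 3) and its lowest (pregnant replicate 3).

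With group means taken away, the differences between arrays of a group remain. Animal, slide, scan day and the scaling of the array cannot be told apart in them. The highest r with the 3p strand were then those of ssc-miR-9811-5p (0.93), ssc-miR-9853-5p (0.91), ssc-miR-296-5p (0.89), ssc-miR-4334-5p (0.87) and hsa-miR-125a-3p (0.86), with rho of 0.71 to 0.93. ssc-miR-4334-5p and ssc-miR-9853-5p were among the top 5 by both measures. For the 5p strand the highest values within groups were those of ssc-miR-652 (0.88), ssc-miR-9788-3p (0.83), hsa-miR-324-3p (0.82), ssc-miR-9853-5p (0.80) and ssc-miR-140-5p (0.79). Over the 8 arrays they were lower and belonged to ssc-miR-4339 (0.71), hsa-miR-484 (0.65), ssc-miR-140-3p (0.64), hsa-miR-33a-5p (0.63) and ssc-miR-874 (0.62).

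**Figure D4:**
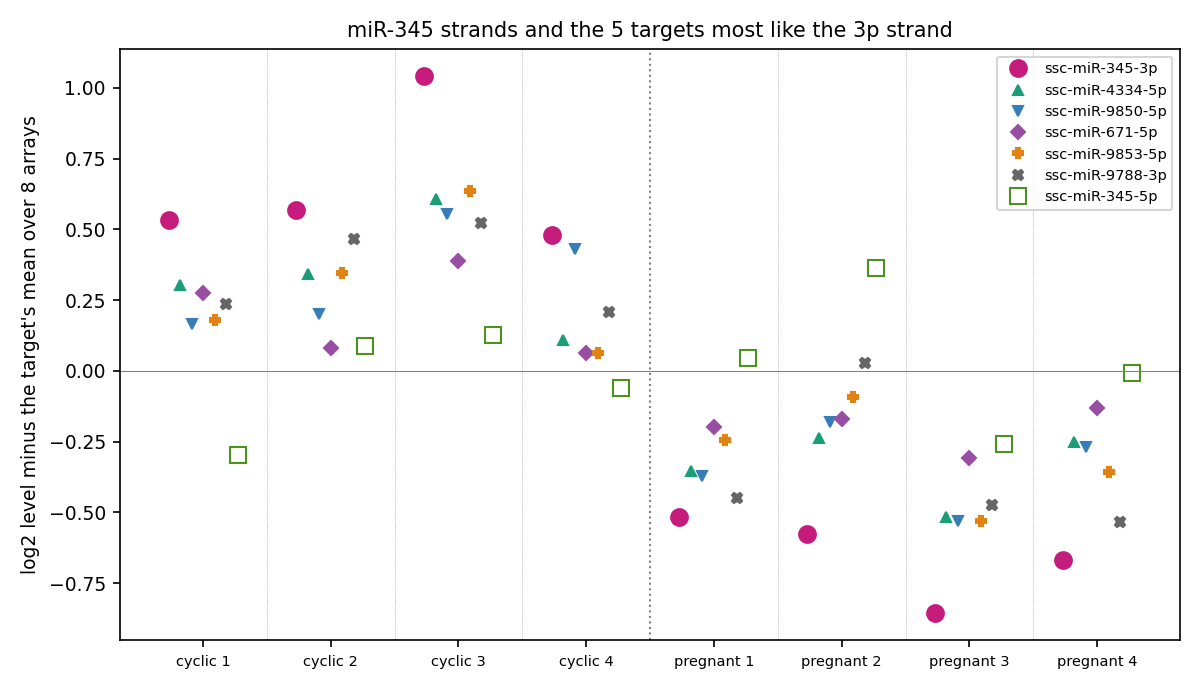
Level on each array, as log2 minus the target's own mean over the 8 arrays, of ssc-miR-345-3p (magenta circles), ssc-miR-345-5p (open green squares) and the 5 targets with the highest r with the 3p strand. The 3p strand and the first 4 of these targets are above their mean on all cyclic arrays and below it on all pregnant ones, all 5 targets differ less than the 3p strand, and the 5p strand crosses its mean in both groups.

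Markers of other cells varied between arrays and were set beside the 3p strand. For leukocytes 8 of 16 entries were tested, and the summed signal of these 8 (relative to the array's 75th percentile) was 0.931, 2.41, 2.12 and 5.22 on cyclic replicates 1 to 4 and 1.01 to 1.22 on the pregnant arrays. Cyclic replicate 1 thus had the lowest leukocyte signal of all arrays, with the neutrophil miRNA hsa-miR-223-3p at −3.16 against −0.33, −0.02 and 1.74 on the other cyclic arrays. On that array miR-345-3p read −2.82, between its values on cyclic replicates 2 and 4. The part of leukocytes in the level of miR-345-3p was not tested. Of the 8, ssc-miR-155-5p, induced when lymphocytes and macrophages are activated, fell (−0.96 ± 0.25, limma adjusted p = 0.0324), 0 rose and 7 did not pass. That 1 of 8 is close to the 11.3% called among all tested targets. Among the 7 was bta-miR-155, a further entry for miR-155, detected on all 8 arrays with overlapping groups (−0.34 ± 0.20, limma adjusted p = 0.267). The call on ssc-miR-155-5p held in 12 of 29 other settings, and its adjusted p ranged from 0.000839 to 0.153 over them, with the direction kept; this check and that of miR-542 were chosen after seeing the data.

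The fibroblast miRNAs miR-199 and miR-214 (5 of 6 entries tested) summed to 3.57, 4.62, 8.49 and 6.09 on cyclic replicates 1 to 4 and to 3.85 to 4.31 on the pregnant arrays. Cyclic replicate 3, the array with the highest miR-345-3p after scaling, also had the highest fibroblast signal, which carries the same scaling. Cyclic replicate 1 had the lowest fibroblast signal. The part of these cells in the level of miR-345-3p on cyclic replicate 3 was not tested. Of the 5, 0 passed in either direction (limma; 1 had an unadjusted p under 0.05), where 11.3% of all tested targets passed and 34.4% had an unadjusted p under 0.05. So few members say nothing particular about these miRNAs.

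The other lists overlapped between the groups, with 0 members past the adjusted threshold in each. With 2 to 4 members a list, that count cannot be set apart from the 11.3% called, or the unadjusted counts from the 34.4%, among all tested targets. The summed signal of the erythroid miR-451 and miR-144 (2 of 4 entries tested, miR-486 being detected on no array; 0 with an unadjusted p under 0.05) was 1.31 to 7.22 in the cycle and 1.29 to 6.19 in pregnancy. For the endothelial miR-126 (2 of 2 tested, 0 unadjusted) it was 6.29 to 7.49 and 7.10 to 8.73. For the smooth muscle and pericyte miRNAs miR-143 and miR-145 (4 of 4 tested, 0 unadjusted) it was 1.25 to 1.87 and 1.28 to 1.70. For miR-202 (2 of 2 tested, 1 unadjusted) it was 0.210 to 0.540 and 0.343 to 0.626, with cyclic replicate 1 at the top of the cyclic range.

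Slide and scan day bear on the comparison because slides 1 and 2 each held 1 group. On slide 3, with 2 arrays per group, the mean level of the 3p strand was −2.59 in the cycle and −4.11 in pregnancy, a log2 difference of −1.53. The cyclic arrays of slide 2 averaged −2.80 and the pregnant arrays of slide 1 −3.90, so within either group the slides differed far less than the groups did. For the 5p strand, slide 3 gave −4.33 in the cycle and −4.50 in pregnancy (−0.17), slide 2 −4.47 and slide 1 −4.16. Among the 6 arrays of the second scan day the differences were −1.42 for 3p and −0.10 for 5p.

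The difference of the 3p strand was negative in all 24 other settings tried, from −1.53 to −0.37, and its groups stayed apart in 23 of them. Settings that left out arrays, added a block or changed the floor reused the same levels per array. Sign and separation there followed from the reported levels, so the number of settings is no measure of support. The exception was normexp background correction, which adds an offset of 50 to every spot, more than the mean intensity of either 3p probe on any array. There the difference was −0.37, the distance between the strands −0.40, and the groups overlapped, with pregnant replicate 4 at −1.76 and cyclic replicate 4 at −1.85. For the 5p strand the difference was negative in 6 of 23 settings and ran from −0.17 to 0.37, the highest value being that of scaling over all probes. That setting shifted the median of all tested targets by 0.30. In the authors' deposited table, which holds log2 values centred on each spot's median over the 8 arrays, the difference was −1.19 for 3p and 0.25 for 5p.

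**Figure D5:**
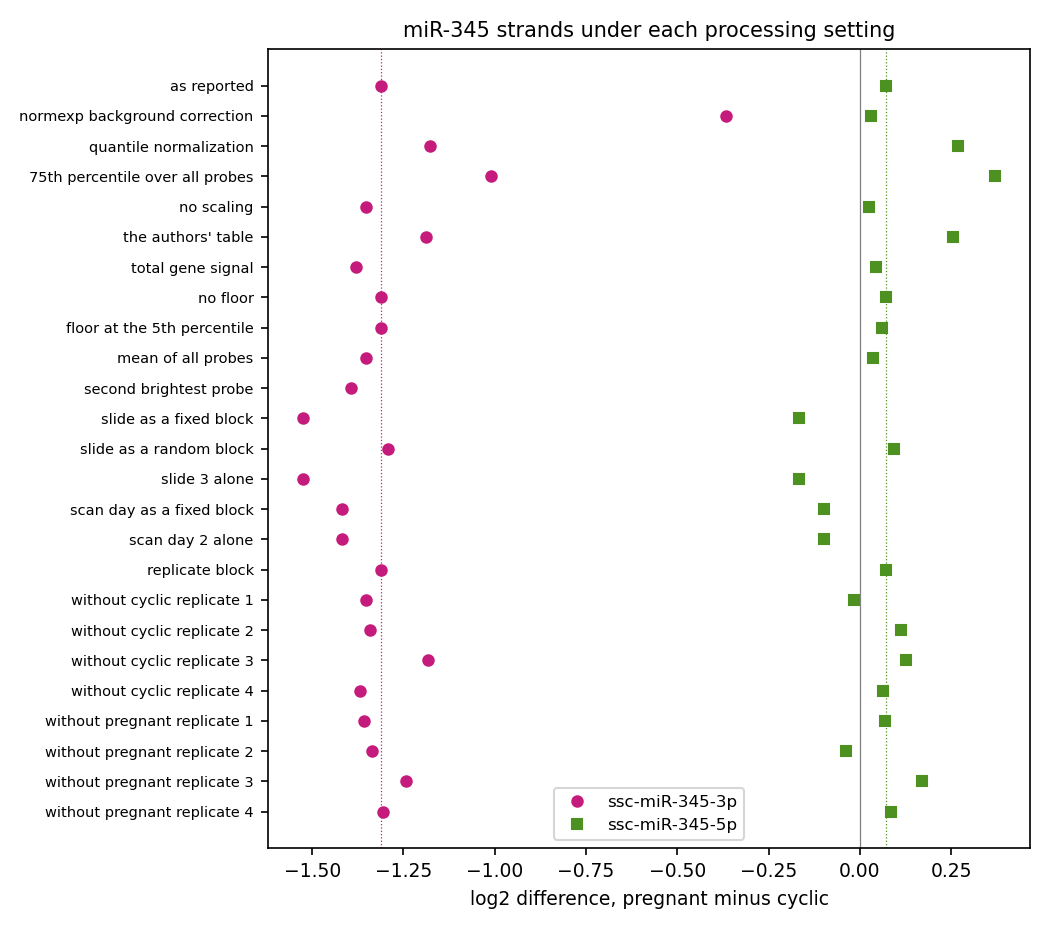
Log2 difference of pregnant minus cyclic for ssc-miR-345-3p (magenta circles) and ssc-miR-345-5p (green squares) as reported and under each other setting tried; dotted lines mark the reported values of −1.31 and 0.07. The 3p strand lies below 0 in every setting, nearest to it (−0.37) with normexp background correction, and the 5p strand lies on either side of 0.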

How the data were processed

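The authors deposited 1 scanner file per array with the intensity of each spot on a linear scale, background-subtracted, made with Agilent Feature Extraction (version 10.7.3.1 per the file headers, 10.7 per the submitters' processing notes). A table of log2 values per spot was deposited as well, whose scaling between arrays stays unknown. Set against log2 intensity of 2806 bright spots, it proved centred per spot and to run in the same direction (r 0.878 to 0.974). Its columns had medians of −0.000302 to 0.0318, and all were used as log2 values. In 2 of them, listed as a score for that reason, 3 deposited cells above 100 were read as missing. The table served as an alternative.

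Control spots (715 per array) and outlier spots (384 to 453) were left out. Intensities were averaged over the spots of a probe, divided by the 75th percentile (189 to 316) over targets detected on all arrays, floored at the 1st percentile of detected probes and put on a log2 scale. Detection of a probe required that 0.5 or more of the spots exceed background well, and the brightest probe stood for a target. The 212 targets detected on at least 4 arrays were fitted with limma 3.58.1 in R 4.3.3 (2-sided, variance trend in eBayes) and adjusted by Benjamini-Hochberg at 0.05. Probe numbers are those of the array design. The code was tested on simulated data. Figures were drawn with matplotlib 3.10.9.

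The members, lists and rules were chosen with earlier results of these data known. Named targets were both strands, the 5 most similar to each by either measure, tested members of the lists and the 3 miRNAs whose strands stood farthest apart; a rule on shared seeds was not used here. Replicate numbers are shared by the groups, but deviations of same-numbered samples correlated at 0.11, 0.10, −0.18 and 0.16, so they were not taken as pairs. The number of arrays limits the precision.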

Additional observations from a re-analysis of the deposited data

Results flagged for a closer look

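Within groups of 4 arrays, both strands, their difference and the named targets were checked for a single array that stood apart. The gap of such an array to its nearest neighbour exceeded Dixon's 95% critical value as a share of the group's range. Chance gives this in about 1 of 20 groups of independent, normal values without ties. It was found in 7 of 102 groups, which share arrays and scaling. Where all other arrays of a group are at the floor, any value off the floor is flagged, and that rate does not hold. The 3p strand of miR-345 read −2.31 on cyclic replicate 3, above the other cyclic arrays at −2.87 to −2.78. Before scaling, that array was not the brightest cyclic one for this strand. Without it, the difference of the strand between the groups was −1.18. ssc-miR-202-3p read −1.06 on cyclic replicate 1, and ssc-miR-9788-3p, one of the targets most like miR-345-3p, −3.48 on pregnant replicate 2. ssc-miR-127 read −4.03 on pregnant replicate 3. ssc-miR-142-5p read −3.16 on pregnant replicate 1, and on the same array ssc-miR-144 (−4.74) and ssc-miR-487b (−3.75) stood above pregnant arrays that were all at the floor.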

How the results depend on the processing

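The difference of the 3p strand moved by more than its replicate SD with normexp (−0.37), scaling over all probes (−1.01) and slide as a fixed block or slide 3 alone (−1.53 in both, which are 1 contrast). That of the 5p strand moved with scaling over all probes (0.37) and with slide (−0.17), and the distance between the strands with normexp (−0.40). With single arrays left out, the ranges were −1.37 to −1.18 for 3p, −0.04 to 0.17 for 5p and −1.45 to −1.30 for the distance. The second 5p probe lay at the floor on every array and gave no value. The replicate block left the differences at −1.31 and 0.07, since it does not alter a balanced mean; 26 targets passed with it, and the other counts were as reported. The number of targets passing, 24 as reported, was 62 with scaling over all probes (55 higher, 7 lower, against 11 and 13), 11 with normexp, with the floor at the 5th percentile and with targets detected on at least 1 array, 10 with the total gene signal, 9 without scaling and on slide 3, 3 with the second brightest probe, and 2 with scan day as a block or scan day 2 alone. It ran from 7 to 81 with arrays left out, 81 being without cyclic replicate 1. The DLK1-DIO3 count of 0 became 2 with scaling over all probes and 1 with the mean of all probes, slide as a fixed block or no trend, and ran from 0 to 3 with arrays left out. The number of miRNAs with strands farther apart than miR-345 was 2 with normexp, 0 among porcine targets alone and 0 to 1 with arrays left out. Causes were not tested beyond what the settings themselves fix. Signal over background limits the 5p strand on all arrays and the 3p strand on pregnant replicate 4.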
